A study of Mus musculus with 6 samples.

Results

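Predicted and unnamed gene models are genes that carry a serial name in place of a functional one. Gm symbols (Gm followed by digits) are predicted mouse gene models, and Rik symbols come from full-length cDNA clones of the RIKEN mouse collection. The rule used the symbol alone. Of 27095 gene windows in the data, 3842 met the rule, 2107 of them Gm and 1735 Rik, while 21973 windows had other symbols (named windows) and 1280 had none. Chromatin accessibility had been measured by ATAC-seq, an assay in which a transposase inserts sequencing adapters into open DNA. The cells were MHCII-high medullary thymic epithelial cells, the mature epithelium of the thymic medulla. There were 3 libraries of Kat7 knockout mice and 3 of wildtype mice, each a biological replicate, all on the C57BL/6 background. Not given in the sources used here are the promoter of any Cre, the deleted stretch of Kat7 and the age and sex of the mice.

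Medullary thymic epithelial cells transcribe many genes that otherwise belong to single tissues, and present the products to developing T cells. KAT7, also called HBO1, is a MYST-type enzyme that places acetyl groups on the tails of histones H3 and H4. Gm and Rik models hold many long non-coding RNAs, pseudogenes, recent gene copies and genes first seen in testis, which are often restricted to few tissues.

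Each value is the number of reads in a window around a gene start that takes in 3000 bases before it and 2000 after it. RefSeq (GRCm38.p6) held a promoter, 250 bases before to 50 after the start, for 886 Gm and 1218 Rik windows. Among the windows with the largest changes in Kat7 knockout cells, the promoters of the 2 largest decreases and the largest increase of each class held by RefSeq are shown, because their base composition and likeness return in the results. Capitals mark CG dinucleotides and the CCAAT and TGANTCA motifs on either strand. The SP factor core GGGCGG was searched too, as were the ETS-type sequence CCGGAAG, the TATA box as TATAAA and the NRF1 motif. Both strands were read, and none of the 7 sequences held any of these. Letters could belong to more than 1 match. Gm14403 (chr2:177497976-177498275, plus strand) and Gm14322 (chr2:177759038-177759337, plus strand) had the largest Gm decreases. Gm14325 (chr2:177840287-177840586, minus strand) is a close copy that changed little and was added after its values were seen. Gm2447 (chr3:52739474-52739773, plus strand) and 9230112J17Rik (chr9:60545833-60546132, minus strand) rose. 4933433F19Rik (chr8:30568145-30568444, plus strand) and 4931408C20Rik (chr1:26687411-26687710, minus strand) fell.
Gm14403: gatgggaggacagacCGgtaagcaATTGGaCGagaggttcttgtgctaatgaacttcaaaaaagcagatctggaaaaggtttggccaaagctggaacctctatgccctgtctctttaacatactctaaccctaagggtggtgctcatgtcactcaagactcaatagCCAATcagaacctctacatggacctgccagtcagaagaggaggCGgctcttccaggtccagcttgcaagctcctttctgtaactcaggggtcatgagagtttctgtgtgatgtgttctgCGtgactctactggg
Gm14322: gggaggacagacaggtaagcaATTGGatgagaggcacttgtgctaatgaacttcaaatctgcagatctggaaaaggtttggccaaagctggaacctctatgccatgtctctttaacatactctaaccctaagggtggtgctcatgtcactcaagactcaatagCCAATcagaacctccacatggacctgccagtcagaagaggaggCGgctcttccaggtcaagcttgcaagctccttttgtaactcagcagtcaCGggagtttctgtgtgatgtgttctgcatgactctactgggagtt
Gm14325: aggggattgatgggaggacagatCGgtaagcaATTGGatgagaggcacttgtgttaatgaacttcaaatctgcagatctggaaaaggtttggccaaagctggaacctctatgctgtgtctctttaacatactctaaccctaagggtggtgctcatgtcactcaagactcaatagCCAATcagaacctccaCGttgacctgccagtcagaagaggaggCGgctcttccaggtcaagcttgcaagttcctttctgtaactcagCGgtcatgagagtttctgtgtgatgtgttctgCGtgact
Gm2447: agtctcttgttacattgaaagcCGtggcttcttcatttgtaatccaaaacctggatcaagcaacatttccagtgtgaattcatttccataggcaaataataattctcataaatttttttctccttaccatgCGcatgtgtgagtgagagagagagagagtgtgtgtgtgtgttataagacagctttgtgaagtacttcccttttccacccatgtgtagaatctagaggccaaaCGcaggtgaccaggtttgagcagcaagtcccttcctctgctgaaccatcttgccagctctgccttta
4933433F19Rik: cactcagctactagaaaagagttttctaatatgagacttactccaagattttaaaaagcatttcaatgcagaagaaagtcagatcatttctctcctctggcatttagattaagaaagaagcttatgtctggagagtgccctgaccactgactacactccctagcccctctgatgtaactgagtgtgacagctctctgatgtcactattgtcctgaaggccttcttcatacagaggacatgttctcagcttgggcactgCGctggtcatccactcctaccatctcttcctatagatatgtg
4931408C20Rik: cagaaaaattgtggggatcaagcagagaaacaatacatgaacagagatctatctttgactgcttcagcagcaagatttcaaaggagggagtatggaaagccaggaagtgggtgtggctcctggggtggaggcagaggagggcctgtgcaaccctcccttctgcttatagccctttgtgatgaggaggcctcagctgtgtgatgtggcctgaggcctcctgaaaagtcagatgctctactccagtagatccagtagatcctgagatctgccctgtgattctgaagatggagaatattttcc
9230112J17Rik: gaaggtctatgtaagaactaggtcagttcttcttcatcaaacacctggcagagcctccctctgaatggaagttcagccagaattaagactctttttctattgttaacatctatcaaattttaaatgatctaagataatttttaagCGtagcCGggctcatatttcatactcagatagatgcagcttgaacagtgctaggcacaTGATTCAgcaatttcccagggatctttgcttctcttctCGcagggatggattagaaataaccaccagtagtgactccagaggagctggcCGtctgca
The 3 copies from chromosome 2 each carried 2 CCAAT matches, and the others carried none. CCAAT occurred in 37.4% of all 32851 promoters in the table, and TGANTCA, found here in 9230112J17Rik, in 7.81%. The 7 sequences held between 0 and 5 CG dinucleotides, against a median of 7 over all promoters.

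Libraries held 15482439 to 19740835 counts in Kat7 knockout and 15494911 to 19832326 in wildtype. The Kat7 window held 208, 221 and 627 counts in the 3 knockout libraries, against 5672, 3729 and 4606 in the 3 wildtype libraries. All 8 markers of medullary epithelium were counted in every library, and no listed marker of another cell type was at 0 in any. The knockout sums lay above the wildtype ones for 2 lists: the 3 cortical epithelial markers summed to 78.0 to 84.1 CPM (counts scaled to a common library size) in knockout, against 53.8 to 62.9 in wildtype, and the 5 thymocyte markers to 18.97 to 24.2 against 16.4 to 18.3. They lay below for the 2 endothelial markers, at 10.8 to 13.1 against 21.0 to 23.8, the 3 B cell markers, at 14.7 to 15.4 against 18.98 to 21.7, the 4 myeloid markers, at 15.8 to 18.6 against 21.4 to 22.98, and the 2 mesenchymal markers, at 51.7 to 54.3 against 59.6 to 65.1. Of the myeloid markers Csf1r and Lyz2 fell, with log2 fold changes of -0.80 and -0.79, while Itgam and Itgax were at 0.42 and 0.17 and did not pass. The part of such cells in the results was not tested. In these bulk samples, fewer cells of a type and less open DNA per cell cannot be told apart. Replicate 1 of each group was the deepest of its group and stood apart in the predicted models. Relative to the wildtype mean, the median Gm window was at -0.28, 0.16 and 0.22 on the log2 scale in knockout replicates 1, 2 and 3, against -0.12, 0.02 and 0.10 in the wildtype replicates.

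Gm and Rik windows were far less accessible than named ones. Among windows that shared no base with another window, the median level was 0.475 CPM per kb of window for Gm, 0.976 for Rik and 4.63 for named windows. A mean of at least 500 counts was reached by 161 Gm windows (7.64%) and 285 Rik windows (16.4%), against 39.1% of named windows. Mean counts, here and below, were not scaled to window length. Together the Gm windows took 1.68%, 1.88% and 1.94% of all counts in knockout libraries, against 1.88%, 2.00% and 2.05% in wildtype. The Rik windows took 2.87%, 2.98% and 3.03% in knockout, against 3.02%, 3.12% and 3.17% in wildtype. The groups overlapped for both classes. No read was counted in any library for 19 Gm and 13 Rik windows, and a count of 0 allows a level of up to 3 counts, or 0.154 to 0.192 CPM, per library. The classes still reached high levels at their upper ends, with a 90th percentile of 4.80 CPM per kb for Gm, 13.3 for Rik and 27.6 for named windows.

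**Figure D1:**
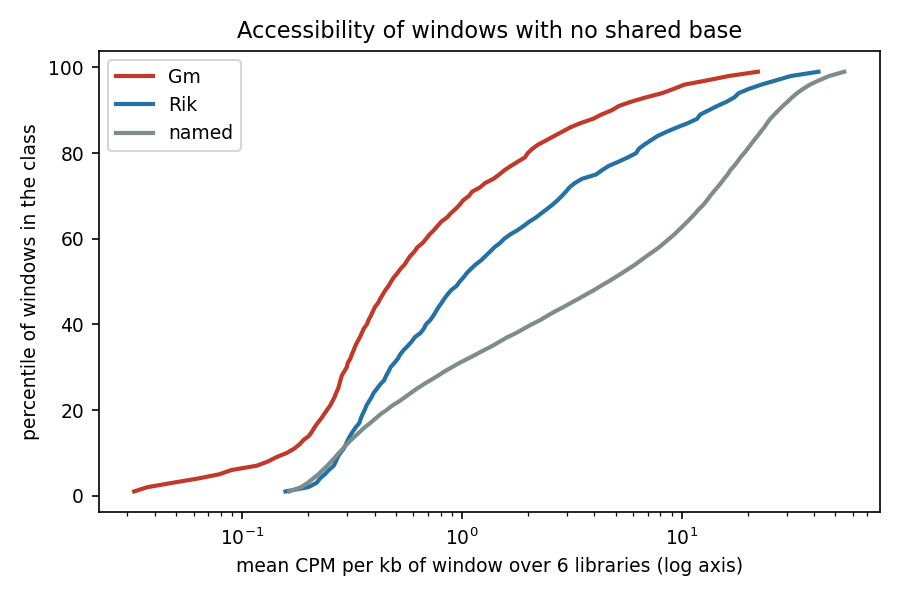
Cumulative distribution of mean CPM per kb of window (log axis) for Gm, Rik and named windows with no shared base; the vertical axis is the percentile within the class. The Gm curve lies left of the Rik curve, which over most of its length lies left of the named curve, with medians of 0.475, 0.976 and 4.63.

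Windows were tested with edgeR's quasi-likelihood test at a Benjamini-Hochberg adjusted p below 0.05, fitted over all 24817 windows that passed its filter on low counts. Of 1874 Gm windows tested, 332 were lower and 126 higher in Kat7 knockout. Of 1621 Rik windows tested, 360 were lower and 100 higher. The same rule called 20.2% of all tested windows lower and 6.36% higher, 26.6% in either direction, and the members' shares lay close to that background at 17.7% lower and 6.72% higher for Gm and 22.2% lower and 6.17% higher for Rik. The filter left out 233 Gm and 114 Rik windows. Of the Gm windows tested, 118 had all libraries above the filter level in knockout alone and 130 in wildtype alone, and for Rik these numbers were 48 and 87. The counts of tested members therefore do not describe all members.

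Among called windows with a change of at least 2-fold, 116 Gm windows fell and 32 rose, which is 6.19% and 1.71% of those tested. Likewise 130 Rik windows fell and 16 rose, 8.02% and 0.987%, and over all tested windows 1807 fell and 220 rose, 7.28% and 0.887%. All knockout libraries lay below all wildtype libraries in 320 of the 332 Gm and 343 of the 360 Rik windows called lower, 96.4% and 95.3%, as in 97.6% of all windows called lower. Over all tested windows 24.6% did so, called or not, and 13.5% had all knockout libraries above all wildtype ones. The median log2 fold change was 0.09 for Gm and -0.04 for Rik, against 0.04 for all windows tested. The Gm median was -0.01 without Kat7 knockout replicate 3, 0.21 without Kat7 knockout replicate 1, 0.02 without wildtype replicate 1, 0.04 without Kat7 knockout replicate 2 and -0.21 where only means of 50 counts or more were kept. The quartiles of all tested windows of each class were -0.35 and 0.48 for Gm and -0.45 and 0.28 for Rik. The number of higher calls depended on scaling and on replicate 1. Loess scaling across windows called 254 Gm windows lower and 286 higher, and 303 Rik windows lower and 288 higher, so that higher calls made up 53.0% of Gm calls in place of 27.5% and 48.7% of Rik calls in place of 21.7%. Without Kat7 knockout replicate 1 the numbers higher were 394 for Gm and 218 for Rik, and without wildtype replicate 1 they were 49 and 46.

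Set against named windows of equal mean count, the Gm class as a whole had fewer decreases and more increases. Tested windows were split into 20 bins of equal size by mean level, and the shares of named windows were weighted by each class's numbers in the bins. At the named share 412 Gm windows would have been lower, against 332 observed, and 75.9 would have been higher, against 126 observed. For Rik these values were 406 against 360 observed lower, and 78.1 against 100 observed higher. The median log2 fold change within bins was 0.08 for Gm against -0.03 for named windows, and -0.06 for Rik against -0.09. Over 19 alternative settings, the ratio of observed to named-share windows lay between 0.75 and 0.86 for Gm lower, 1.20 and 1.69 for Gm higher, 0.81 and 0.93 for Rik lower, and 1.03 and 1.33 for Rik higher. Windows are not replicates, so these are descriptions with no test. The shares changed with level in all classes. In the lowest 3 deciles of mean level, which held 50.9% of Gm and 38.7% of Rik windows, 0.944% of Gm, 5.26% of Rik and 2.52% of named windows were called lower. From decile 4 to decile 7 the shares lower were 37.4% for Gm, 38.3% for Rik and 46.7% for named windows. In the top 3 deciles the order was the other way round, with 11 of 87 Gm (12.6%), 19 of 188 Rik (10.1%) and 405 of 7107 named windows (5.70%) lower. There 16 Gm, 20 Rik and 657 named windows were higher, which is 18.4%, 10.6% and 9.24%.

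**Figure D2:**
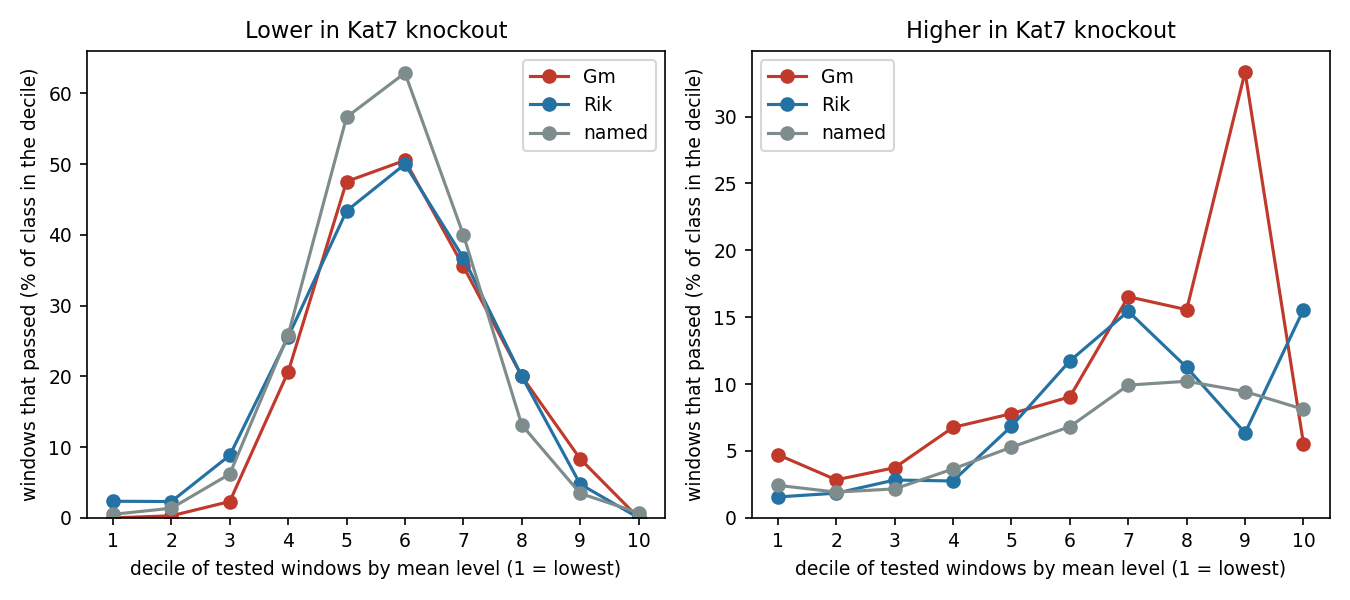
Share of Gm, Rik and named windows called lower (left) or higher (right) in Kat7 knockout, in each decile of all tested windows by mean level. Decreases peak in decile 6, with 95 of 188 Gm, 98 of 196 Rik and 1255 of 1996 named windows; the top 3 deciles hold only 87 Gm windows, so their points rest on few windows.

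Gm windows of different transcript types were called at different rates. Among Gm windows that RefSeq annotates as long non-coding RNA, 135 of 513 were lower (26.3%) and 38 higher. Among protein-coding Gm models 68 of 496 were lower (13.7%), and among Gm pseudogenes without a transcript 23 of 296 (7.77%). The median counts of the tested windows of these types were 69.5, 33.7 and 28.1, so the order of the shares is also the order of the counts. Long non-coding Rik windows were lower in 251 of 1089 cases (23.05%) and protein-coding ones in 69 of 349 (19.8%). The opening digits of a clone name give its source library. Clones from RIKEN testis libraries stood on 744 tested Rik windows, of which 148 were lower (19.9%) and 41 higher (5.51%). Over all tested windows these shares were 20.2% and 6.36%. Clones from gut libraries gave 9 lower and 5 higher of 50, those of the tongue library 9 lower and 4 higher of 45, and other clones 194 lower and 50 higher of 782. The median log2 fold change was 0.00 for testis clones and -0.07 for the others. On the X chromosome 6 Gm windows were lower (3.92%) and 10 higher (6.54%) of 153 tested, with a median count of 17.8 and a median log2 fold change of 0.54. Named windows tested on the X had a median count of 82.5, and 19.7% were lower and 5.67% higher. Over all chromosomes, Gm windows in deciles 1 and 2 of mean level had median log2 fold changes of 0.60 and 0.48. The median counts of these deciles were 14.7 and 22.7, and 0% and 0.284% of their Gm windows were lower and 4.72% and 2.84% higher. Of 119 Gm windows on the Y chromosome 6 were tested, and none passed, by edgeR, DESeq2 or limma-voom or at an unadjusted p below 0.05. Windows that share bases with a neighbour made up 17.6% of Gm and 29.3% of Rik windows. Their median count was 28.7 for Gm and 29.2 for Rik, against 37.2 and 82.0 for windows with no shared base. Among tested windows alone these values were 49.6 and 41.0, against 43.2 and 83.25. Whether such windows lose the reads of the shared stretch was not tested.

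The windows with the largest changes were picked among called windows with separate groups, so their separation was set by that rule. The largest decrease of a Gm window was at Gm14403, a long non-coding RNA in a cluster of zinc finger genes on chromosome 2. It had 4.36, 4.18 and 8.81 CPM in Kat7 knockout, against 41.6, 27.7 and 35.1 CPM in wildtype. The highest knockout library was below the lowest wildtype library, and the level was 6.05-fold lower (log2 fold change -2.60 ± 0.14 SE, edgeR adjusted p = 1.32e-62). That precision depended on the fit. With library totals only the SE was 0.345 and the edgeR adjusted p 0.00172. By DESeq2 the SE was 0.385 and the adjusted p 1.02e-09. Gm14322, a protein-coding model of the same cluster, had 4.36, 5.97 and 8.07 CPM in knockout, against 36.6, 31.8 and 35.2 CPM in wildtype. It was 5.65-fold lower (edgeR adjusted p = 1.05e-74, and 5.83e-08 with library totals only). The groups did not overlap here either. Gm15821 lies in the MHC class II region of chromosome 17, with its start 9.98 kb from that of Tap2, a subunit of the transporter that supplies peptides to MHC class I. It had 6.88, 6.99 and 11.6 CPM in knockout, against 47.7, 38.2 and 44.7 CPM in wildtype (log2 fold change -2.36 ± 0.13 SE). The Tap2 window changed far less, with a log2 fold change of -0.39 and an edgeR adjusted p of 0.00736.

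Gm10637, a long non-coding RNA on chromosome 8, averaged 5.87 ± 2.42 CPM in knockout and 28.6 ± 3.46 CPM in wildtype (SD, n = 3 each). Its nearest named start, that of the synapse organiser Cbln1, was 273 kb away. Gm2897, a protein-coding model near the start of chromosome 14, averaged 10.3 ± 2.04 CPM in knockout and 44.2 ± 3.72 CPM in wildtype. That end of the chromosome is rich in predicted copies, and of its 64 Gm windows before 8 Mb, 9 were lower (14.1%, against 17.7% of all Gm windows tested) and 0 higher by edgeR, 1 was higher at an unadjusted p below 0.05 and by DESeq2, and limma-voom called 0 higher. Copies may share reads there too. Gm10493 on chromosome 17 averaged 5.20 ± 2.23 CPM in knockout and 20.8 ± 1.49 CPM in wildtype. Gm5124, a transcribed pseudogene of the X chromosome, averaged 2.20 ± 0.99 CPM in knockout and 8.04 ± 0.39 CPM in wildtype. In all 7 Gm windows knockout replicate 1 or 2 was lowest and replicate 3 highest.

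Among Rik windows the largest decrease was at A830018L16Rik, a protein-coding gene of chromosome 1. It had 6.13, 5.38 and 7.40 CPM in Kat7 knockout, against 37.9, 30.5 and 34.8 CPM in wildtype, and was 5.46-fold lower (log2 fold change -2.45 ± 0.13 SE, edgeR adjusted p = 1.18e-72). The groups did not overlap. B430010I23Rik, a long non-coding RNA of chromosome 8, had 8.42, 7.88 and 11.2 CPM in knockout, against 41.1, 33.3 and 43.5 CPM in wildtype. Its nearest named gene, Pdgfrl, which is 91.2 kb away, was lower too, with a log2 fold change of -1.12. 4931408C20Rik, a protein-coding gene whose promoter above holds no CG dinucleotide, had 7.97, 11.4 and 15.5 CPM in knockout, against 44.8, 40.4 and 48.3 CPM in wildtype. It was 3.84-fold lower.

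The remaining 4 of the 7 largest Rik decreases were between 3.77-fold and 3.99-fold. 4930447C04Rik is also known as Six6os1, and in mouse its product is a protein of the synaptonemal complex, which joins chromosomes in meiosis. It averaged 2.54 ± 1.04 CPM in knockout and 9.67 ± 1.43 CPM in wildtype (SD, n = 3 each), and the neighbouring eye-field gene Six6 was lower with a log2 fold change of -0.96. The long non-coding RNAs 4933433F19Rik and 4930428E07Rik averaged 2.21 ± 0.54 and 2.44 ± 0.54 CPM in knockout, against 8.80 ± 1.16 and 9.61 ± 1.09 CPM in wildtype. Their nearest named windows, Dusp26 and Etv1, did not pass. 5830432E09Rik averaged 6.24 ± 1.43 CPM in knockout and 23.5 ± 0.32 CPM in wildtype. Its nearest named gene, Mki67, which encodes a marker of dividing cells, had a log2 fold change of 0.19 with an edgeR adjusted p of 0.262.

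The largest increases were smaller than the largest decreases. The first of a Rik window was at 2810407A14Rik, a long non-coding RNA whose start lies 85.1 kb from that of Bach1, which encodes a repressor of haem and oxidative stress genes. It had 65.2, 51.6 and 59.2 CPM in Kat7 knockout, against 20.04, 24.6 and 23.9 CPM in wildtype, 2.57-fold higher (log2 fold change 1.36 ± 0.11 SE, edgeR adjusted p = 1.94e-30). Bach1 itself had a log2 fold change of 0.18 and did not pass. 9230112J17Rik, a long non-coding RNA, had 69.6, 59.96 and 54.5 CPM in knockout, against 24.9, 30.2 and 26.2 CPM in wildtype. 1810046K07Rik is the mouse gene of a coactivator that works with POU2F3, the regulator of tuft cells, and tuft-like cells are among the cell states found in the thymic medulla. It had 16.3, 14.99 and 13.8 CPM in knockout, against 6.05, 8.82 and 5.79 CPM in wildtype, 2.19-fold higher (edgeR adjusted p = 3.1e-13). The groups were separate at all of these. The window of its neighbour Pou2af1, a B cell coactivator, had a log2 fold change of 0.13 and did not pass. E430016F16Rik and 4930452G13Rik rose by log2 fold changes of 1.15 and 1.09.

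The largest Gm increase was at Gm7897, on chromosome 1 beside the interferon-inducible Ifi200 genes. It had 72, 83 and 79 counts in knockout, against 29, 28 and 25 counts in wildtype, 2.93-fold higher after scaling (edgeR adjusted p = 9.66e-07). The nearest named window, Ifi203-ps, was not called. Gm2447 had 21.0, 18.5 and 19.1 CPM in knockout, against 7.89, 10.03 and 9.04 CPM in wildtype. Gm10790 had 20.6, 19.5 and 20.7 CPM in knockout, against 7.12, 11.4 and 10.6 CPM in wildtype. Each stood clear of the wildtype range. The nearest named gene of Gm10790 is Adtrp, a hydrolase of fatty acid esters, which rose as well with a log2 fold change of 0.60. Gm15446 and Gm10635 were 2.13-fold and 2.02-fold higher. All 24 windows with the largest changes were picked for the size and separation of their change, and all kept their call under every one of 16 alternative settings. The size of the adjusted p values differed widely between these settings.

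**Figure D3:**
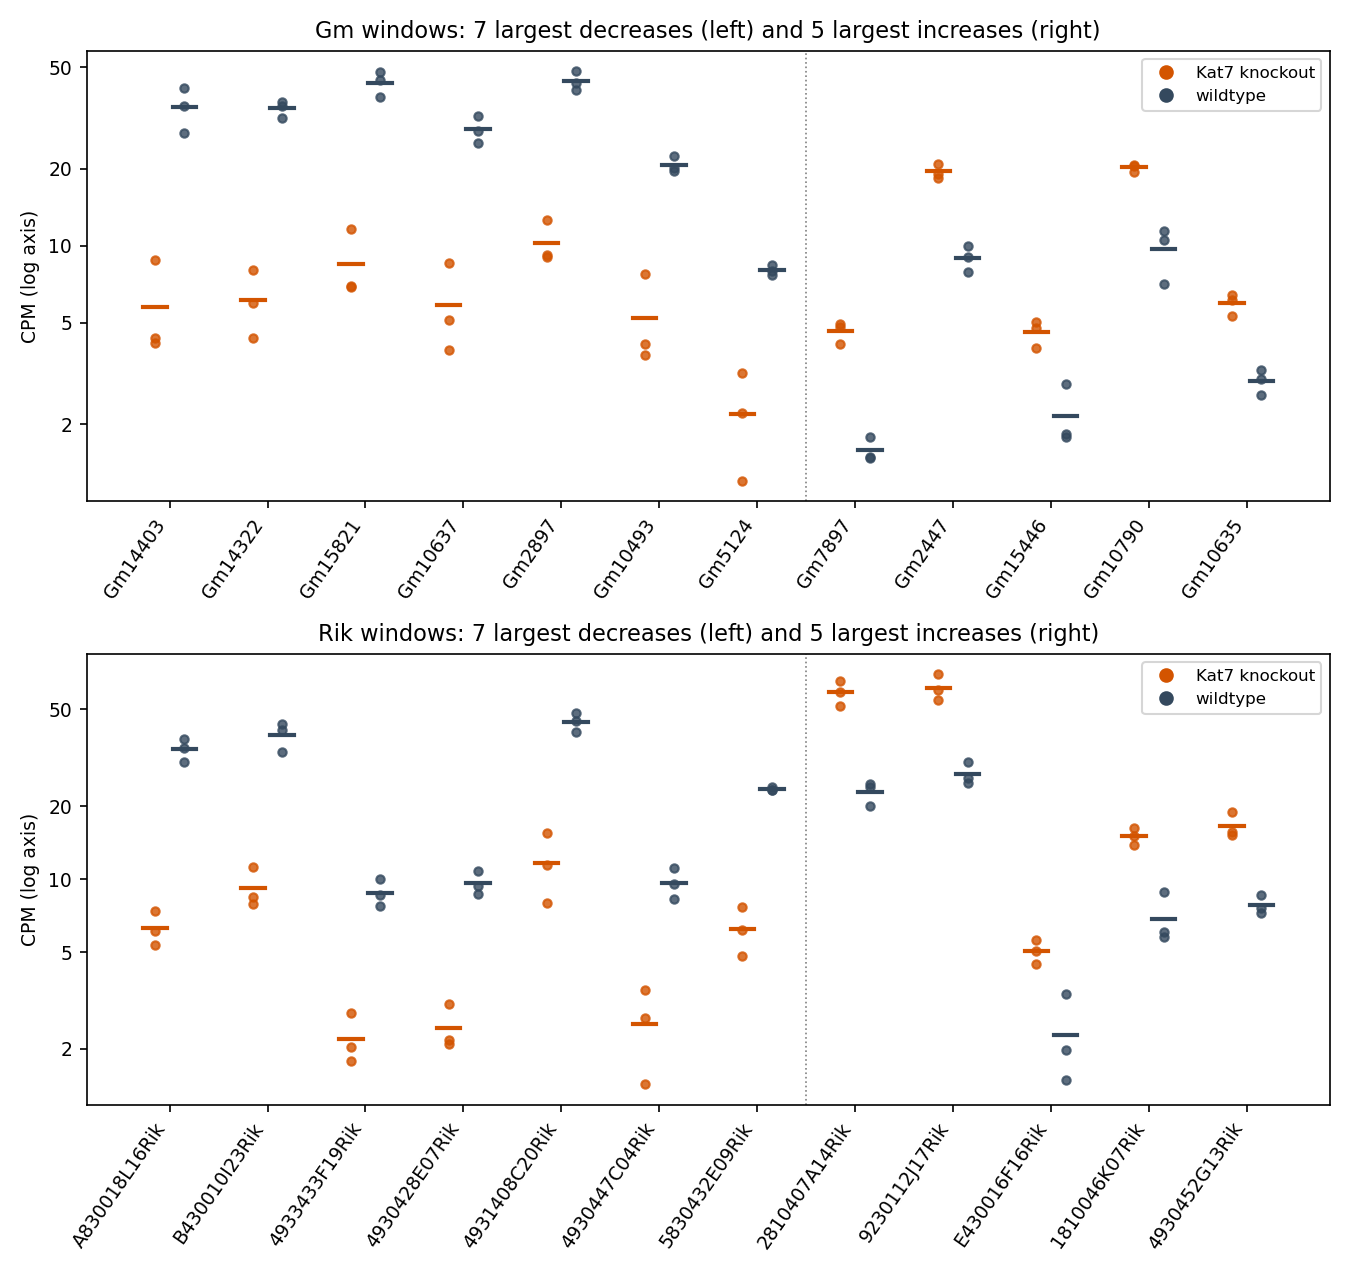
CPM on a log axis in each library (points) with the group mean (bar), Kat7 knockout left of wildtype, for the 7 largest decreases and 5 largest increases of Gm (top) and Rik (bottom) windows. By the rule that picked the windows, no knockout point reaches the wildtype range of its window. Gm14403 averages 5.78 CPM in knockout and 34.8 CPM in wildtype, and 2810407A14Rik 58.7 CPM in knockout and 22.9 CPM in wildtype.

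Most listed Gm windows of the zinc finger cluster of chromosome 2 were lower. The list was chosen with earlier results of these data known. The cluster consists of young, near-identical copies of genes for KRAB zinc finger proteins, a family best known for silencing transposable elements. Of 24 listed Gm members 14 had a window, and all 14 passed the count filter. Of these 14, 11 were lower in Kat7 knockout and 0 higher by edgeR, as by DESeq2 and limma-voom, and 0 were higher at an unadjusted p below 0.05. Their log2 fold changes had a median of -1.08, against 0.04 and 20.2% lower over all windows. That share depends on level. In deciles 5, 6 and 7, with median levels of 7.02, 15.1 and 33.4 CPM, 56.6%, 62.9% and 40.0% of named windows were lower. Their median log2 fold changes were -0.55, -0.54 and -0.14. The 11 ranged from Gm14403, at -2.60, to Gm14325, at -0.38. Gm14399 averaged 21.4 ± 1.07 CPM in knockout and 60.1 ± 1.98 CPM in wildtype (SD, n = 3 each). Gm14434 averaged 4.20 ± 1.12 CPM in knockout and 13.9 ± 2.36 CPM in wildtype. The 3 not called had the lowest counts: Gm14393, Gm14406 and Gm14419 averaged 2.13, 1.76 and 1.496 CPM in knockout, against 1.58, 1.86 and 2.57 CPM in wildtype.

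The decreases were not limited to the listed members. In the 2.89 Mb between the outermost starts of the list lay 22 Gm windows, of which 17 were lower and 0 higher by edgeR, by DESeq2 and by limma-voom, with 0 higher at an unadjusted p below 0.05. All 7 named windows there were lower too, Zfp970 with a log2 fold change of -1.86 and Zfp967 with one of -0.83. Of 4 tested windows without a symbol 2 were lower. The longest run of neighbouring members all called lower, 8 windows from Gm14399 to Gm2026, spanned 0.823 Mb here. It counts Gm and Rik members alone, and a window without a symbol that lies within it was not called.

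Close copies differed in the size of their change. Gm14325 had 45.7, 44.1 and 43.5 CPM in Kat7 knockout, against 60.8, 55.7 and 57.2 CPM in wildtype, a decrease of 1.30-fold (edgeR adjusted p = 0.00356). Gm14326 was 1.31-fold lower, and without Kat7 knockout replicate 2 its edgeR adjusted p was 0.0874. In the same libraries Gm14322 was 5.65-fold lower. The log2 ratio of Gm14322 to Gm14325 averaged -2.90 ± 0.48 in knockout and -0.75 ± 0.06 in wildtype (SD, n = 3 each), a pair chosen after its values were seen and given with no test. RefSeq held promoters for 10 of the 14 windows. Over their 45 pairs the aligned bases were 77.1% to 100% identical, with a median of 95.5%, and all 10 promoters held CCAAT. The Gm14403 and Gm14322 promoters were identical at 94.9% of aligned bases and those of Gm14434 and Gm14308 at 100%. Reads from such copies may fit several places, and the sources used here do not give how they were assigned, so the split of counts among copies is uncertain. Some copies had alike counts and others did not. Gm14325 had 797, 739 and 712 counts in knockout and Gm14326 had 847, 649 and 722. Gm14434 had 55, 68 and 88 counts in knockout and 296, 175 and 260 in wildtype. Gm14308 had 69, 61 and 61 in knockout and 218, 108 and 190 in wildtype.

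**Figure D4:**
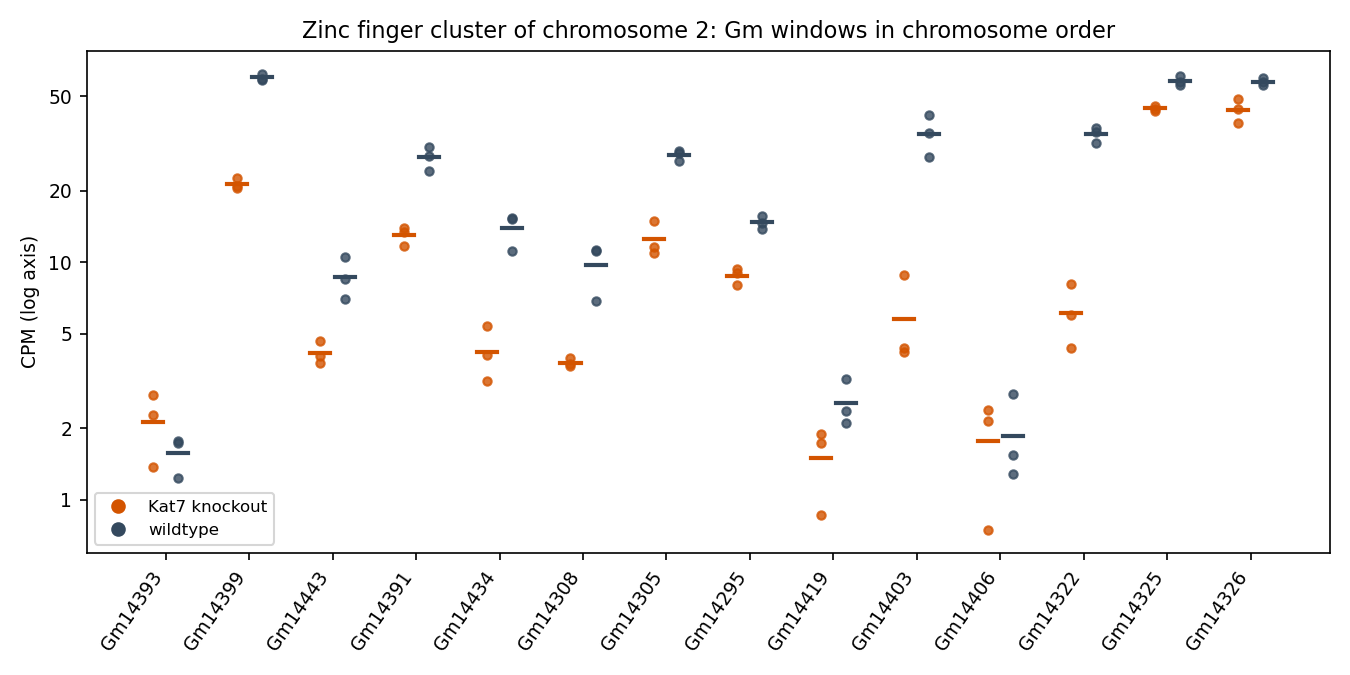
CPM on a log axis in each library (points) with the group mean (bar), Kat7 knockout left of wildtype, for the 14 listed Gm windows of the chromosome 2 zinc finger cluster in chromosome order. Knockout points lie below all wildtype points in 12 windows; Gm14325 and Gm14326, at the right, keep high levels in both groups while Gm14403 and Gm14322 have the widest gaps.

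Other listed families showed no called member. The 6 trypsinogen-like models of chromosome 6 belong to the gene group of pancreatic trypsinogens, classic tissue-restricted antigens of the thymic medulla. Their windows held between 7 and 33 counts per library, none passed by edgeR, DESeq2 or limma-voom, 1 was higher at an unadjusted p below 0.05, and the median log2 fold change was 0.77. Weak windows had positive medians in all classes. In deciles 1 and 2, with median levels of 0.87 and 1.34 CPM, the medians were 0.60 and 0.48 for Gm windows. They were 0.20 and 0.34 for Rik and 0.48 and 0.38 for named windows. 1810009J06Rik had 19, 30 and 20 counts in Kat7 knockout, against 10, 9 and 16 counts in wildtype, a log2 fold change of 1.01 ± 0.50 SE with an edgeR adjusted p of 0.131. Without Kat7 knockout replicate 1 that adjusted p was 0.0308, and that of Gm5771 was 0.0131. Of 6 named relatives 1 passed, Prss2, with a log2 fold change of 0.70 and an edgeR adjusted p of 0.0476. Reads of these close copies may be split among them.

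Of 6 listed models that resemble Ccl21 and Ccl27, chemokines that guide T cells, 4 had a window and 3 were tested. Gm2564, Gm13304 and Gm10591 had log2 fold changes of -0.27, -0.46 and -0.35, and none passed by edgeR, DESeq2 or limma-voom, 2 were lower at an unadjusted p below 0.05, and all knockout libraries lay below all wildtype libraries at each. Gm2564 passed under 8 of 16 alternative settings and was at 0.02 with loess scaling. Among the named relatives, Ccl19 fell with a log2 fold change of -0.78 and Ccl21b with one of -0.57, while Ccl21a was at 0.08 and Ccl27a at 0.02. The Ccl21 and Ccl27 genes are near-identical copies in mouse, so the split of their counts is uncertain. Listed models of the stefin A family, of satellite repeats and of small housekeeping proteins were not analysed here.

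The most accessible members did not pass the test. 4932412D23Rik, 2700012I20Rik and 4930526I15Rik averaged 462 ± 60.4, 427 ± 49.9 and 375 ± 49.99 CPM in Kat7 knockout, against 447 ± 25.5, 408 ± 9.16 and 329 ± 9.11 CPM in wildtype (SD, n = 3 each). Gm53175, whose start lies 14.5 kb from the class I gene H2-Q4, averaged 303 ± 34.6 CPM in knockout and 331 ± 9.32 CPM in wildtype. Gm19976, 4.18 kb from the cytoplasmic actin gene Actg1, averaged 269 ± 36.7 CPM in knockout and 218 ± 14.4 CPM in wildtype. Its knockout libraries all lay above the wildtype ones, with an edgeR adjusted p of 0.0675, and 10 of 15 alternative settings put it past the threshold. Gm10789 averaged 207 ± 26.9 CPM in knockout and 200 ± 12.3 CPM in wildtype.

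Predicted models have promoters poor in CG, the dinucleotide whose density separates broadly active promoters from restricted ones. The median number of CG dinucleotides in 300 bases was 3 for Gm, 6 for Rik and 15 for named windows. At least 10 were present in 18.7% of Gm, 37.1% of Rik and 61.2% of named promoters. Within a class of CG content, the share of windows lower in Kat7 knockout was alike in the 3 kinds of gene. With under 5 CG it was 15.7% of Gm, 18.9% of Rik and 16.1% of named windows, and with 5 to 9 it was 31.0%, 27.6% and 31.9% in the same order. GGGCGG occurred in 18.3% of Gm, 30.05% of Rik and 49.6% of named promoters. CCGGAAG was in 12.7% of named but 3.50% of Gm promoters. These are descriptions with no test, and median counts rose with CG content among named windows, from 31.8 at under 5 to 1028 at 20 or more. For Gm and Rik windows they were 30.8 and 51.2 at under 5 and 45.7 and 52.7 at 20 or more. At 5 to 9 they were 60.4 for Gm, 98.2 for Rik and 160 for named windows. The shares by CG content are therefore not at equal level.

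**Figure D5:**
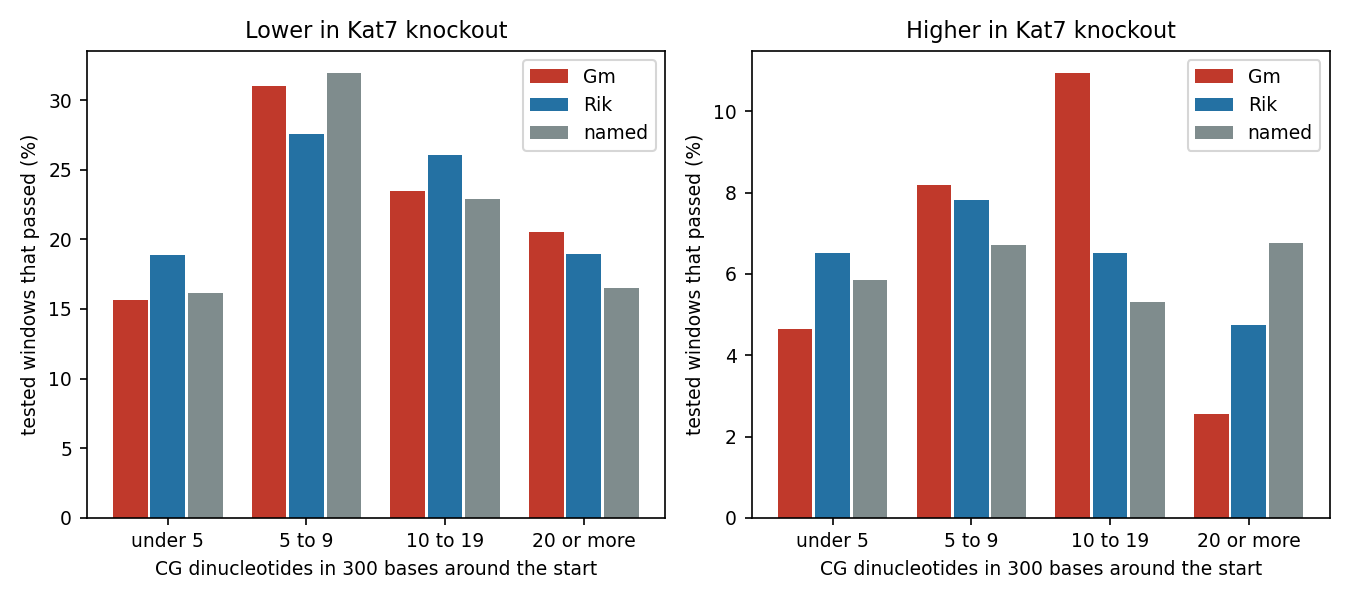
Share of tested windows called lower (left) or higher (right) in Kat7 knockout by the number of CG dinucleotides in 300 bases around the start, for Gm, Rik and named windows. Decreases are most frequent at 5 to 9 for all 3 kinds, at 31.0%, 27.6% and 31.9%; the classes with 10 or more hold few Gm windows, 64 and 78 tested.

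Members near a named gene moved with it in part. Among Gm windows with no shared base whose nearest named start was under 10 kb away, Pearson's r between the log2 fold changes of both windows was 0.39 over 140 pairs, and for Rik it was 0.37 over 71. Named windows with a named neighbour at that distance had an r of 0.53 over 2067 pairs. Over 50 kb the values were 0.23 for Gm, 0.04 for Rik and 0.17 for named windows. These are correlations across windows, which share the same 6 libraries, and they are given with no p. Of 47 Gm windows called lower with a named start under 10 kb away, 17 had a neighbour called lower and 3 one called higher. Over all 140 such Gm windows 22.1% of the neighbours were lower, close to the 20.2% of all windows. This sharing of calls did not fall with distance for Gm. Of Gm windows called lower, 36.2% had a lower neighbour under 10 kb away, 37.6% at 10 to 50 kb and 43.3% over 50 kb. For Rik these shares were 35.0%, 36.8% and 25.9%, and for named windows 40.2%, 32.75% and 25.4%. Over all such Gm windows, called or not, 22.7% of the neighbours were lower at 10 to 50 kb and 25.7% over 50 kb. Windows over 50 kb away can have the same neighbour. Gm14399, Gm14443 and Gm14391 of the chromosome 2 cluster all had Zfp968, which was lower.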

How the data were processed

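Counts per gene window for 6 ATAC-seq libraries were deposited by the authors as whole numbers, with featureCounts and mm10 named in the submitters' processing notes. Not given in the sources used here are the aligner, the treatment of duplicates and of reads that fit several places, the transposase shift and whether fragments or ends were counted. Duplicates and repeated sequence can raise or split the counts of single windows. Each library's own table held the same counts as the series table and supplied the symbols. RefSeq annotation (GRCm38.p6) held 3267 of the 3842 members. A gene start lay exactly 3000 bases into 12793 windows.

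The test was that of edgeR 4.0.16 under R 4.3.3 (filterByExpr, TMM factors, robust quasi-likelihood fit, Benjamini-Hochberg over all 24817 windows), with no block. The common biological coefficient of variation was 10.9%. CPM used effective library sizes, fold changes are knockout over wildtype, and 1 SE is the fold change divided by the root of F. Alternatives used limma 3.58.1 and DESeq2 1.42.0. Promoters were aligned globally with Biopython 1.88. Depth limits weak windows: 3 counts equal 0.154 to 0.192 CPM, and such floors cover counting error only.

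Named windows were, per class, the 7 largest decreases and 5 largest increases among called windows with 50 or more counts on average, no shared base and separate groups, the 3 highest levels, and listed families. The members and lists were chosen with earlier results of these data known. Correlations of deviations between libraries of the same replicate number were 0.38, 0.04 and 0.39. Between libraries of different numbers they ran from -0.44 to 0.31. This check does not decide whether the numbers mark pairs. The sources used here do not say that they do, so the main fit had no block.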

Additional observations from a re-analysis of the deposited data

How the results depend on the processing

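Counts of lower calls stayed within 1.5 times of the reported 332 Gm and 360 Rik windows under the 16 alternatives run, at 254 to 375 and 274 to 400, but with loess scaling only 191 of the 332 (57.5%) and 232 of the 360 (64.4%) were called lower again, and no member called lower or higher turned to the opposite call. Counts of higher calls did not: Gm had 126 as reported, 286 with loess scaling, 290 with libraries 2 and 3 of each group alone and 49 to 394 when 1 library was left out, and Rik had 100, 288 with loess scaling and 46 to 218. The causes were not tested. The median log2 fold change of Gm windows was -0.21 at a mean count of at least 50, and that of Rik windows turned to 0.02 with loess scaling. Rik minus named at equal mean count was 0.0331, and 0.0931 at a mean count of at least 50, 0.0892 without overlapping windows, 0.0604 with a narrower set of named genes and 0.0186 to 0.0396 when 1 library was left out. With the replicate number as a block, a pairing that the check did not decide, 235 Gm windows were higher and 375 lower. No sample pair was crossed. Of 806 values for 51 named windows under 16 settings, 749 kept direction and side of the threshold, 31 newly passed, 2 no longer passed (Gm14326 above, and Gm14295 with loess scaling, at an edgeR adjusted p of 0.153) and 24 turned sign. All 24 were of windows not called. With loess scaling, Gm10789 was at -0.0696, 4932412D23Rik at -0.0561, 2700012I20Rik at -0.0413, Gm5409 at -0.156, Gm10591 at 0.139 and Gm2564 at 0.0202. With libraries 2 and 3 alone, Gm10789 was at -0.0162, 4932412D23Rik at -0.0207, 2700012I20Rik at -0.0212, Gm10334 at 0.0752 and Gm14406 at 0.142. When 1 library was left out, the ranges were -0.0693 to 0.104 for Gm10789, -0.0696 to 0.11 for 4932412D23Rik, -0.0395 to 0.126 for 2700012I20Rik, -0.203 to 0.496 for Gm5409, -0.438 to 0.197 for Gm10334 and -0.369 to 0.302 for Gm14406. Windows of few counts, such as the trypsinogen-like models, have wide errors, such as an SE of 0.50 for 1810009J06Rik.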

Other observations

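Further runs of neighbouring members all changed one way, and these windows were picked for that, so they are given as values with no test. Runs count Gm and Rik members alone, and other windows may lie between them. Over all tested windows 20.2% were lower and 6.36% higher. In deciles 4 and 5, with median levels of 3.55 and 7.02 CPM, 20.6% and 47.5% of Gm and 25.6% and 43.4% of Rik windows were lower. On chromosome 10, 5 consecutive members over 0.945 Mb were lower in Kat7 knockout by edgeR. Among them, 4930486F22Rik averaged 2.75 ± 1.22 CPM in knockout and 6.35 ± 0.60 CPM in wildtype (SD, n = 3 each), Gm5174 averaged 4.20 ± 1.29 CPM in knockout and 9.07 ± 1.52 CPM in wildtype, and Gm6721 averaged 5.94 ± 0.55 CPM in knockout and 9.96 ± 1.18 CPM in wildtype. Gm6713 and Gm6729 had log2 fold changes of -0.75 and -0.69. On chromosome 9, 4 members over 0.277 Mb were lower, of which Gm5122 changed most, with 4.96 ± 0.67 CPM in knockout and 11.9 ± 2.29 CPM in wildtype.

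The one run of 4 members that were all higher lay on chromosome 5 and spanned 1.71 Mb. C030018K13Rik averaged 9.55 ± 0.43 CPM in knockout and 4.91 ± 1.17 CPM in wildtype, and 9130230L23Rik averaged 75.0 ± 8.32 CPM in knockout and 46.7 ± 5.35 CPM in wildtype. Gm3716 and 1700126H18Rik had log2 fold changes of 0.55 and 0.53.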
